A study of Drosophila melanogaster with 3 samples.

Results

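Of the 8131 summits in the optimal list of Hmr binding sites, 1405 (17.3%, exact Clopper-Pearson 95% interval 16.5 to 18.1) flanked an annotated gene start without lying on it. They were chosen by position alone. Each summit lay farther than 250 bp and at most 1000 bp from the nearest annotated start of any transcript of any gene, and outside every annotated exon. No measured signal entered the choice beyond membership of the optimal list. For comparison, 3131 summits lay within 250 bp of a start and are called promoter summits, and 3246 non-exonic summits lay beyond 1000 bp and are called distal. A further 179 summits at 250 to 1000 bp fell inside exons and are not members.

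The data were chromatin immunoprecipitation with sequencing from 3 biological replicates of whole Drosophila melanogaster embryos of mixed sex, collected over 0 to 24 h of development. All 3 came from 1 transgenic line that stably expressed Hmr with GFP fused to its C terminus, and the tagged protein was pulled down with an antibody against GFP. The labels name no promoter for the transgene and do not say whether the endogenous Hmr gene was intact, and a whole embryo mixes all tissues and stages of that day. There was 1 group and no untagged or treated group, so positions in the genome were compared, not conditions.

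Hmr (Hybrid male rescue) is a DNA-binding protein best known because it takes part in the death of hybrid males between Drosophila species. It acts together with Lhr and associates with the heterochromatin protein HP1. In the compact fly genome, the sequence just upstream of a start often belongs to the promoter of that gene, whereas the region inside a start beyond the leading exon is commonly intron, and both can hold enhancers, insulators and alternative starts.

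The sequences below are windows that reach 100 bp to each side of member summits, from the RefSeq soft-masked Release 6 sequence, which is dm6, on the plus strand. The first pair is shown because they are strong members that hold CACTG, at Lk6 (chr3R:11760948-11761148) and larp (chr3R:28326483-28326683). Capitals mark CACTG or its reverse complement, a short sequence that was picked after word counts at these summits had been seen. Of 6 windows read at strong members, 3 held it (Lk6, CG9663 and larp), and those at jp, ph-p and chif held none. Over all members 40.0% of the windows held it, and 35.6% in the strongest of 4 equal parts by signal.
Lk6: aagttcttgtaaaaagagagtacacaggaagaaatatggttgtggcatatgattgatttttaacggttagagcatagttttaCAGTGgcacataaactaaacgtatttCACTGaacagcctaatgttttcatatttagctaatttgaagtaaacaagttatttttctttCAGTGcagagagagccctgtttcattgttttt
larp: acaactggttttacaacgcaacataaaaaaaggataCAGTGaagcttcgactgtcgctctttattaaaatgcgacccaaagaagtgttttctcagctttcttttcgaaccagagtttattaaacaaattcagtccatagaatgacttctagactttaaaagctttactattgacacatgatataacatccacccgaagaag

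The next 4 windows are shown because they hold the core AGNTGGCGC of the site of the insulator protein CTCF, in capitals on either strand. Among the consensus sequences searched that were present at 1% or more of the members, this core had the highest ratio of the summit share to the mean flank share, though its interval touched that of the flank toward the start. They are among the strongest members with a match, at jp (chr2L:9567408-9567608), Asator (chr4:486602-486802), RabGGTa (chr3R:5126997-5127197) and dco (chr3R:31061423-31061623). The window at dco, the gene of the casein kinase known as Doubletime, held 3 matches, and the others held 1 each. A match is a description of the letters and is not a measured site of CTCF.
jp: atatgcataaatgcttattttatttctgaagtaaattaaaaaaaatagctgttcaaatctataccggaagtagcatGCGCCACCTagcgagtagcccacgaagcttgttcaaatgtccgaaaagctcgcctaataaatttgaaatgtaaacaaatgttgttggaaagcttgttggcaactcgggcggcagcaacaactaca
Asator: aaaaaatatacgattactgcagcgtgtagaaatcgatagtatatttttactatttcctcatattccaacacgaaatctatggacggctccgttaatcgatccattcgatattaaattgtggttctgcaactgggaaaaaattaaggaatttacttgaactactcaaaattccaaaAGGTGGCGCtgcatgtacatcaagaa
RabGGTa: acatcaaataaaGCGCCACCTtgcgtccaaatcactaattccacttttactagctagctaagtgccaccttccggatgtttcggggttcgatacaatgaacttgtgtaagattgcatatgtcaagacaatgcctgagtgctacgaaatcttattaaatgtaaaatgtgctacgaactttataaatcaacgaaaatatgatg
dco: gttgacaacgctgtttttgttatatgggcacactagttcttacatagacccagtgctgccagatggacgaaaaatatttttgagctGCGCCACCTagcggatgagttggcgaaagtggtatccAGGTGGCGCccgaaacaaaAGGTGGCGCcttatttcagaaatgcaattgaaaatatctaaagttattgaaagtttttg

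The members lay mostly upstream of their nearest start and close to the inner bound. Of the 1405, 941 (67.0%, interval 64.4 to 69.4) lay upstream and 464 downstream. Pooled entries with no optimal summit within 500 bp, used as a background of weak candidates, lay upstream in 61.0% (59.1 to 63.0) of 2446 cases at the same positions. That rule leaves out entries near promoter summits, 77.0% of which lay upstream, so the lower background share follows from it at least in part. Of all 4221 pooled entries at such positions, members included, 2704 lay upstream. The same rule bears on every later comparison with background entries. By distance, 689 members (49.0%) lay between 250 and 500 bp, 390 between 500 and 750 bp and 326 between 750 and 1000 bp. The excess on the upstream side was largest in the nearest interval, where 582 summits were upstream and 107 downstream. Between 500 and 750 bp there were 228 upstream and 162 downstream. Between 750 and 1000 bp the order was the opposite, with 131 upstream and 195 downstream.

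These counts were divided by the non-exonic sequence whose nearest start lies at that distance. On the upstream side the density fell steadily with distance, from 219 summits per Mb at 250 to 500 bp to 108 at 500 to 750 bp and 73.1 at 750 to 1000 bp. The bin beyond, at 1000 to 1250 bp, held 66.3 per Mb, close to the outermost upstream members. On the downstream side the density did not fall within the members' range. It was 79.3 per Mb at 250 to 500 bp, 99.2 at 500 to 750 bp and 115 at 750 to 1000 bp, and then 104 and 87.7 in the 2 bins that followed. Over all members the density was 125 per Mb, against 39.6 per Mb for distal summits. Exons near starts take away most of the sequence just downstream, so the downstream bins rested on 1.35, 1.63 and 1.70 Mb and the upstream ones on 2.65, 2.11 and 1.79 Mb.

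**Figure D1:**
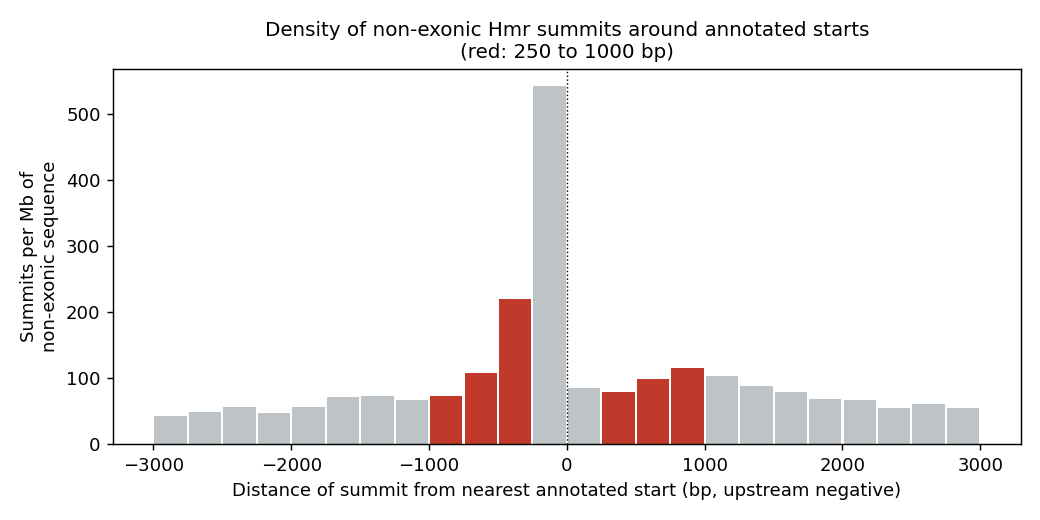
Optimal Hmr summits outside exons per Mb of non-exonic sequence (y axis), in 250-bp bins of distance from the nearest annotated start (x axis, upstream negative). Red bars are the members; upstream they fall from 219 to 73.1 per Mb away from the start, while downstream they range from 79.3 to 115 per Mb with the highest bar at 750 to 1000 bp.

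A summit at a member's position was kept in the optimal list more often than the average pooled entry. Of 4221 entries of the pooled relaxed list at such positions, 33.3% (interval 31.9 to 34.7) were kept, against 27.1% of all 30000 entries. The share was 40.2% at 250 to 500 bp, 30.0% at 500 to 750 bp and 27.1% at 750 to 1000 bp. It was 50.2% within 250 bp of a start, 18.5% for distal entries and 18.9% for exonic entries at the members' distance. The outermost members were therefore kept at the share of the whole list.

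Most members were intronic. Introns held 897 members (63.8%, interval 61.3 to 66.4), and 508 were intergenic. The background entries at the same positions were intronic in 61.9% (60.0 to 63.9), so that the intervals overlap. Downstream members were intronic in 424 of 464 cases, and upstream members were split almost evenly, 473 intronic and 468 intergenic. An upstream summit can be intronic because the nearest start is an alternative start inside a gene. The nearest start was such an internal start for 353 of the 941 upstream members. It was so for 184 of the 464 downstream members, and for 537 members (38.2%) in all. In all, 751 members (53.5%) lay inside the gene of their nearest start and 146 lay inside another gene only. An intronic member lay a median of 349 bp from the nearest exon edge, in a gap between exons with a median length of 1793 bp, while intronic distal summits lay 1710 bp from an edge in gaps of 8153 bp. A start is itself an exon edge, so the rule caps the members' distance and this contrast follows from it at least in part.

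The nearest start belonged to a protein-coding gene for 1244 members (88.5%, interval 86.8 to 90.2) and to a non-coding RNA gene for 137. Another 13 were nearest to a tRNA gene, 6 to a snoRNA gene, 4 to a pseudogene and 1 to a snRNA gene. At background entries of the same positions, 81.5% (79.9 to 83.0) of nearest starts were protein-coding. A start of another gene lay within 1000 bp of 210 members, and 69 members lay between divergent starts, so the nearest gene is a label of position and not a target.

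Most members had no promoter summit at their nearest start. The nearest start had a promoter summit of its own for 302 members (21.5%, interval 19.4 to 23.7), against 12.2% (10.9 to 13.5) of background entries at the same positions. Background entries were taken with no optimal summit within 500 bp, so their lower share follows from that rule at least in part. The share was 17.7% upstream and 29.1% downstream, and the exact intervals do not overlap. The members with such a neighbour had a median signal of 275, against 320 for the summits at the start, and 172 of the 302 were weaker than the summit at the start. The 1103 members without one had a median signal of 305. The median distance to the next optimal summit was 273 bp with a promoter summit at the start and 2369 bp without. A summit at the start caps the first distance, so this contrast follows from the grouping at least in part. Peaks as close as 273 bp can share fragments, which spanned 200 to 800 bp per the labels, and whether that sets the neighbour's height was not tested. The intervals of 48 members were listed with more than 1 summit, and 11 members had a peak that reached their nearest start. The members' median peak width was 456 bp and the rule sets summits farther than 250 bp from a start. The low count follows from that at least in part.

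In peak height the members resembled promoter summits more than distal ones. The signal was deposited by the authors without a unit, for peaks of the pooled libraries, and depth is unknown. The members' median signal was 299 (upper quartile 499, range 154 to 3761), against 308 for promoter and 245 for distal summits. The ratio of medians was 0.971 to promoter and 1.22 to distal summits. Upstream members had a median of 317 and downstream members one of 266. The median was highest at 250 to 500 bp upstream, at 330, and lowest at 750 to 1000 bp downstream, at 255. Members were 15 of the strongest 100 optimal summits and 226 of the strongest 1000 (22.6%), against 17.3% of the whole list. Promoter summits were 67 of the strongest 100 and distal ones 14.

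**Figure D2:**
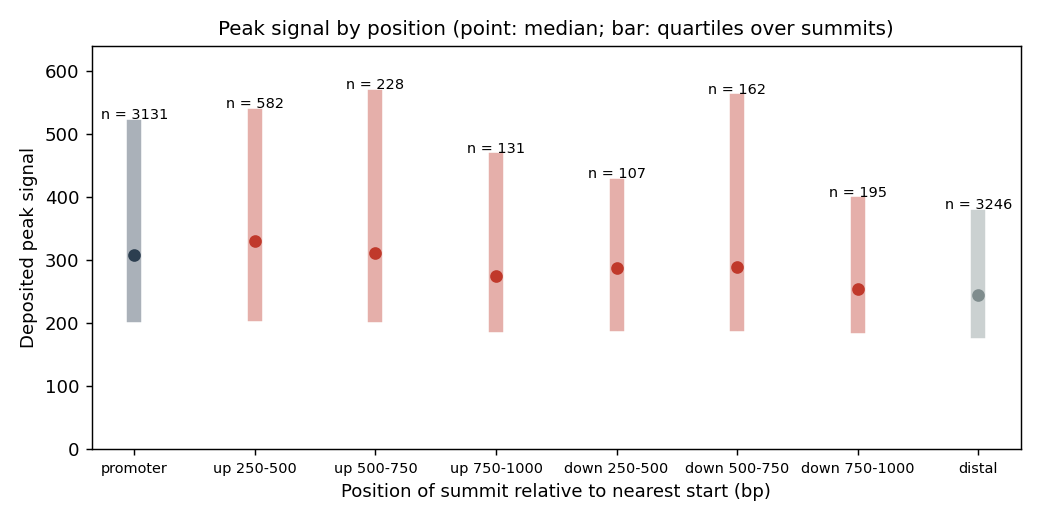
Deposited peak signal (y axis, no unit) of promoter summits, of members by side and distance in bp, and of distal summits. Points are medians and bars are quartiles over the n summits given; member medians run from 330 at 250 to 500 bp upstream to 255 at 750 to 1000 bp downstream, against 308 for promoter and 245 for distal summits.

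The replicates held most members, and their ranks separated members from distal summits in the same direction each time. A replicate was said to hold a member if its 8131 entries of highest signal included a summit no more than 200 bp away. In replicates 1, 2 and 3, 80.6%, 87.4% and 84.1% of the members were matched, a mean of 84.1% ± 3.38 (SD, n = 3). Promoter summits were matched in 81.3%, 79.0% and 92.0%, and distal summits in 80.3%, 80.7% and 77.3%. Members were below promoter summits in replicates 1 and 3 and above them in replicate 2, and the mean difference of -0.027 percentage points ± 8.15 had an exact two-sided sign-flip p of 1 (n = 3). Members exceeded distal summits in 3 of 3 replicates, by 0.388, 6.69 and 6.86 percentage points, with an exact sign-flip p of 0.25 (n = 3). That p is the smallest that 3 replicates allow, so no such test could pass 0.05. With all 30000 entries of each list allowed to match, the difference from distal summits turned to -0.851 percentage points, lower in 3 of 3 replicates (exact sign-flip p = 0.25).

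Rank within each replicate gave a finer reading. The rank percentile of an entry is its place by signal among the 30000 entries of a replicate list, with low values strong. Summits with no entry within 200 bp in a full list were left out of its median. In replicates 1, 2 and 3, 96.2%, 98.0% and 98.2% of members had such an entry, against 93.5%, 93.7% and 99.3% of promoter summits. The effect of leaving out the rest was not tested. The median over members was 12.4, 11.6 and 13.8 in replicates 1, 2 and 3, against 11.9, 11.6 and 11.3 for promoter and 15.2, 16.2 and 18.0 for distal summits. The members' difference from distal summits was -3.85 ± 0.935 (SD, n = 3, exact sign-flip p = 0.25) and the difference from promoter summits 1.04 ± 1.33 (exact p = 0.25). The 3 replicate medians of members and distal summits did not overlap, and those of members and promoter summits did. Among these matched summits, members still ranked weaker than promoter summits within each replicate, by 0.528, 0.03 and 2.55 percentile points in replicates 1, 2 and 3. Upstream members had medians of 11.6, 11.0 and 13.1, and downstream members 14.6, 13.0 and 15.04. Upstream members ranked higher in each of the 3 replicates, by 2.33 ± 0.594 percentile points on average (exact p = 0.25), although the ranges of the replicate medians overlap.

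**Figure D3:**
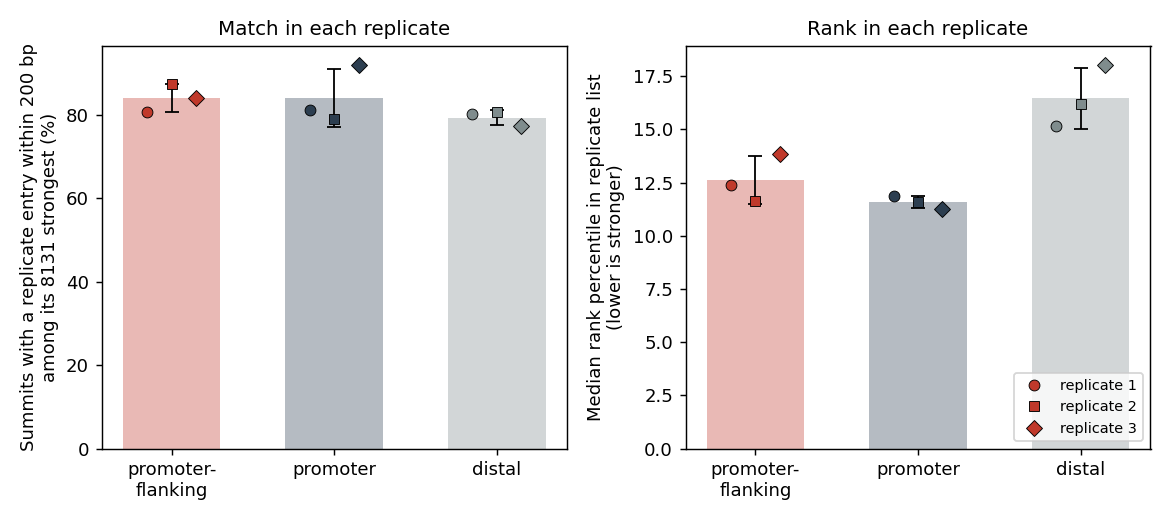
Left, percentage of summits with an entry within 200 bp among the 8131 strongest of each replicate. Right, median rank percentile in each full replicate list over summits with an entry within 200 bp, where low is strong. Points are replicates, bars their mean and error bars the SD (n = 3); members rank at 11.6 to 13.8, below every distal value of 15.2 to 18.0.

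All 3 replicates matched 912 members (64.9%, interval 62.4 to 67.4), against 59.7% of all optimal summits, 61.9% of promoter and 55.9% of distal summits. Exactly 2 replicates matched 323 members, 1 matched 161 and none matched 9. Between 66 and 79 members per replicate were matched to an entry that another optimal summit also used. Since the optimal list came from the pool of these replicates, a high match was built in. Across the members present in both full lists, Spearman's rho of the signal was 0.70 between replicates 1 and 2 (1324 members), 0.75 between 1 and 3 (1330) and 0.78 between 2 and 3 (1355). These describe members of libraries that were called against a shared control and are not independent points.

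The strongest members lay at genes of varied function. Of the strongest 20, 16 were upstream, against 67.0% of all members, and 13 were intronic, against 63.8%. The strongest of all lay 969 bp upstream of an internal start of Lk6, the gene of a kinase of the translation factor eIF4E, in an intron on 3R from 11760824 to 11761456. Its signals were 1155, 1287 and 1322 in replicates 1, 2 and 3, where it ranked 9, 13 and 7, and 3761 in the pool. All 3 ranks were near the top of their lists. The next lay 530 bp upstream of an internal start of HmgZ, in introns of HmgZ and of HmgD, which encode HMG-box chromatin proteins. It ranked 24, 7 and 12 in the replicates, with a pooled signal of 3600.

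The strongest downstream member lay 963 bp inside CG9663, in an intron, with a pooled signal of 3483 and ranks of 22, 15 and 10. The strongest intergenic member lay 758 bp upstream of jp, the junctophilin gene, with a pooled signal of 3148 and ranks of 26, 29 and 17. A member at larp, the gene of a La-related RNA-binding protein, lay 319 bp upstream of an internal start with a signal of 2865 and ranks of 25, 39 and 36. All 3 of these members ranked within the strongest 39 entries of every replicate.

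Both copies of the duplicated polyhomeotic genes, which encode subunits of the Polycomb repressive complex PRC1, had a member. The one at ph-p lay 450 bp upstream of an internal start on X from 2137080 to 2137623, with signals of 663, 1119 and 1041 in replicates 1, 2 and 3. The one at ph-d lay 831 bp upstream on X from 2123883 to 2124426, with signals of 543, 640 and 545, and this start also had a weaker promoter summit of signal 215. Both were among the strongest 200 entries of every replicate, with ranks from 23 to 187. The genes are near-identical copies in part, and how reads that map to both were treated is not given in the sources used here.

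Others of the strongest 20 lay at genes of regulators. The member at chif, whose product activates the replication kinase Cdc7, lay 984 bp upstream of an internal start in an intron and had a signal of 2492. At Adf1, the gene of a transcription factor, the summit lay 847 bp inside an alternative start with a signal of 2249, and that start had a promoter summit too. At elav, the gene of a neuronal RNA-binding protein, the summit lay 252 bp upstream and also within the gene arg, at an equal distance from lncRNA:enrr, with replicate signals of 727, 746 and 760. The member at wde, whose product is a cofactor of a histone H3 lysine 9 methyltransferase, lay 527 bp inside the start with a signal of 1788. A member of signal 2077 lay 893 bp upstream of a start of lncRNA:CR45643, and another of signal 1723 lay 954 bp inside an internal start of the same gene. Further genes of the strongest 20 were cu, sp3, CG17896, CG4496, Acsf2, CG3009, Fhos and asRNA:CR44429, with signals from 1904 to 2173. All of the strongest 20 were matched in all 3 replicates.

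At the bounds, the innermost members lay 251 bp upstream of CG31886 and of Pgk, with signals of 880 and 513, and summits 250 bp from Pax and CG34007, with signals of 508 and 227, just missed. The outermost members lay 1000 bp from CG43131 and plx, with signals of 962 and 322. Summits 1003 bp inside shot and C3G, with signals of 171 and 527, were left out. At the inner bound the 2 members were the stronger, and at the outer bound the values overlap.

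The 1405 members belonged to 1155 nearest genes, of which 956 had 1 member, 160 had 2 and 39 had 3 or more. PGRP-LB, whose product degrades peptidoglycan and dampens the immune response, had 5. They lay in introns at 3 of its starts, with pooled signals of 468, 428, 274, 171 and 156. SNF4Agamma, the gamma subunit of the energy sensor AMPK, also had 5, from 157 to 350. For its strongest member, replicates 2 and 3 held no entry within 200 bp. Those with 4 were larp, CG42258, prage, stv, Irk1, Tlk, Fim and RhoGAP18B. Such genes have several annotated starts, and members of 1 gene can share an interval, as did a pair at prage with signals of 1121 and 1002 on X from 1830544 to 1831291.

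Gene lists for several functions were counted by nearest start, as a description with no test. The lists were chosen with earlier results of these data known. Of 13945 protein-coding genes, 1007 (7.22%, interval 6.80 to 7.66) had a member and 3260 (23.4%) a promoter summit. Long genes and genes with many starts offer more positions for a member, and the counts were not adjusted for that. Of 53 genes of signalling pathways, 14 (26.4%, interval 15.3 to 40.3) had one. The strongest were at the insulin receptor gene InR, with a signal of 918, at pan, the TCF of the Wnt pathway, with 878, and at spi, an EGF receptor ligand, with 832. Also in this list were foxo, aos, brk, Stat92E, aop, sty, Mad, htl, pnt, ptc and sgg. At InR the replicate signals were 230, 333 and 376, and the internal start 657 bp downstream of the summit had no promoter summit. The spi start had one, of signal 1485, above that of the member.

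Cell cycle and growth regulators had a member at 9 of 29 genes (31.0%, interval 15.3 to 50.8). The strongest were at cbt, a zinc-finger factor, with a signal of 1777, at CycE, the cyclin that drives entry into S phase, with 764, and at Dp, the partner of E2F, with 662. RNA-binding and splicing proteins had one at 8 of 28 genes (28.6%, interval 13.2 to 48.7), led by brat, a translational repressor, with 1326, mub with 1067 and ps with 791. Cytoskeletal and adhesion genes had one at 8 of 41 (19.5%, interval 8.82 to 34.9), led by rhea, the talin gene, with 911 and jar, the myosin VI gene, with 842. Clock genes had one at 4 of 10 (dco, Pdp1, sgg and cry), with an interval of 12.2 to 73.8%, and sgg is also in the signalling list. The intervals of these 5 lists lay above the share of all protein-coding genes, with no allowance for the number of lists counted. The same lists, apart from the clock genes, also had promoter summits at 45.3 to 60.7% of their genes.

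For the following lists the interval took in the share of all protein-coding genes, 7.22%. Ecdysone response and nuclear receptor genes had a member at 4 of 21 (Hnf4, E23, Hr38 and svp), with an interval of 5.45 to 41.9%. Chromatin regulators had one at 4 of 39 (ph-p, ph-d, Trl and kis) and insulator and interband factors at 2 of 19 (fs(1)h and row). A list of neural and muscle genes, not all of them transcription factors, had one at 3 of 30 (elav, numb and so). Early patterning factors had one at 2 of 36, hb and oc. The summit at hb, a gap gene of the early embryo, lay 306 bp inside an internal start with replicate signals of 200, 100 and 222. Translation factors had one at 2 of 23 (pAbp and eIF2beta), and heat shock and chaperone genes at 1 of 23, the co-chaperone gene stv.

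Genes of cytoplasmic ribosomal proteins carried many promoter summits, and members at a share near that of all protein-coding genes. Of 92 cytoplasmic ribosomal protein genes, 76 had a promoter summit (82.6%) and 5 had a member (5.43%, interval 1.79 to 12.2, against 7.22% of all protein-coding genes), and all 5 of these also had a promoter summit. Their member signals ran from 160 at RpL37-1 to 375 at RpL10Ab. Of 73 mitochondrial ribosomal protein genes, 30 had a promoter summit and none had a member, a count whose exact interval reaches up to 4.93%. None of 179 chemoreceptor genes had a member either, with an interval of up to 2.04%, and 2 of them had a promoter summit.

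The members' summits were poor in G and C, and the sequence toward the start was not. Mean G+C in the same windows of 100 bp to each side was 36.0% ± 7.68 (SD over 1405 members), against 43.6% in windows 500 bp toward the start and 41.6% in windows 500 bp away from it. For the 689 members at 250 to 500 bp, the window toward the start was centred at or past the start. Members lie outside exons by the rule, but their flanks were not filtered for exons. How much of the contrast this accounts for was not tested, here or for the sequences compared with these flanks. In 25-bp bins the minimum, 34.6%, fell at the summit itself. Distal summits had 36.3%, and promoter summits had 39.6% with their minimum on the side away from the start. Background entries at the members' positions had 40.3%. Upstream members had 35.4% and downstream members 37.4%. Soft-masked repeats covered a mean of 21.1% of the members' windows, 17.9% of promoter windows and 21.3% of distal ones, and 66 members had more than 50% masked.

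**Figure D4:**
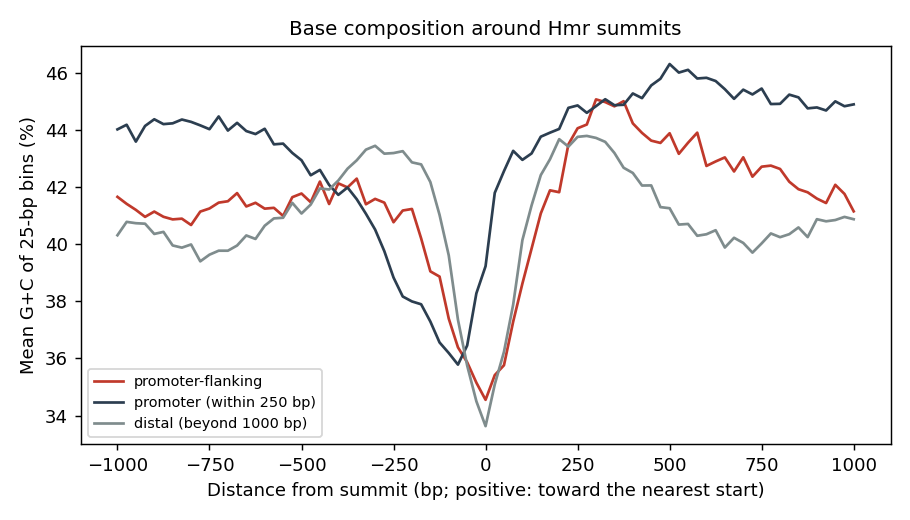
Mean G+C in 25-bp bins (y axis, %) against the distance from the summit (x axis, bp, positive toward the nearest start), for members, promoter and distal summits. The members' curve has its minimum of 34.6% at the summit and, like the promoter curve, is higher on the side of the start.

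Of 26 consensus sequences searched on both strands, 2 had a share at the members' summits whose interval lay above the intervals of both flanks, none had one below both, and 24 had neither. The TATA box TATAAA occurred in 34.4% of the members' windows (interval 32.0 to 37.0), against 19.2% toward the start and 24.0% away from it. The homeodomain core TAATTA occurred in 16.7% (14.8 to 18.8), against 11.0% and 12.5%. Both consist of A and T alone, and the summit windows were richer in these bases than the flanks. The part of base composition in this was not tested. Both were about as frequent at distal summits, 35.5% and 16.6%, and somewhat less at promoter summits.

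The DRE and the M1BP core, which marked promoter summits, were scarce at members. Both, like the BEAF-32 core, stood near the level of the members' flanks. The DRE, TATCGATA, the site of the factor DREF, occurred at 12 members (0.854%, interval 0.442 to 1.49), against 7.92% of promoter and 0.400% of distal windows. The core GGTCACAC of the site of M1BP, a factor of paused promoters, occurred at 11 members (0.783%, 0.391 to 1.40), against 8.05% of promoter and 0.277% of distal windows. In the members' flanks the DRE and the M1BP core each occurred in 1.07% toward the start and 0.427% away from it. The core CGATA of BEAF-32, which is contained in the DRE, occurred at 23.3% of members, against 24.3% and 22.0% of their flanks, 40.7% of promoter and 20.1% of distal windows. For all 3 sequences the member and promoter intervals did not overlap. Of the 12 members with the DRE, 6 had a promoter summit at their start, against 21.5% over all members.

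The CTCF core shown above occurred at 30 members (2.14%, interval 1.45 to 3.03), against 0.854% (0.442 to 1.49) and 0.427% (0.157 to 0.927) of the flanks toward and away from the start. It is among the 24 sequences whose interval was not above both. Its share was 1.95% at promoter and 1.69% at distal summits, and 0.981% at background entries of the members' positions. The median distance of a match from the summit was 33 bp. The GCATACTT core of Su(Hw) occurred at 19 members (1.35%, interval 0.816 to 2.10), against 0.214% toward the start and 1.14% away from it. It was at 2.03% of distal summits and 1.92% of background entries at the members' positions. None of the 19 starts had a promoter summit, against 21.5% over all members. The repeat GAGAGAG, bound by GAGA factor, occurred in 5.55% of the members' windows, against 8.75% toward the start and 5.77% away from it.

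**Figure D5:**
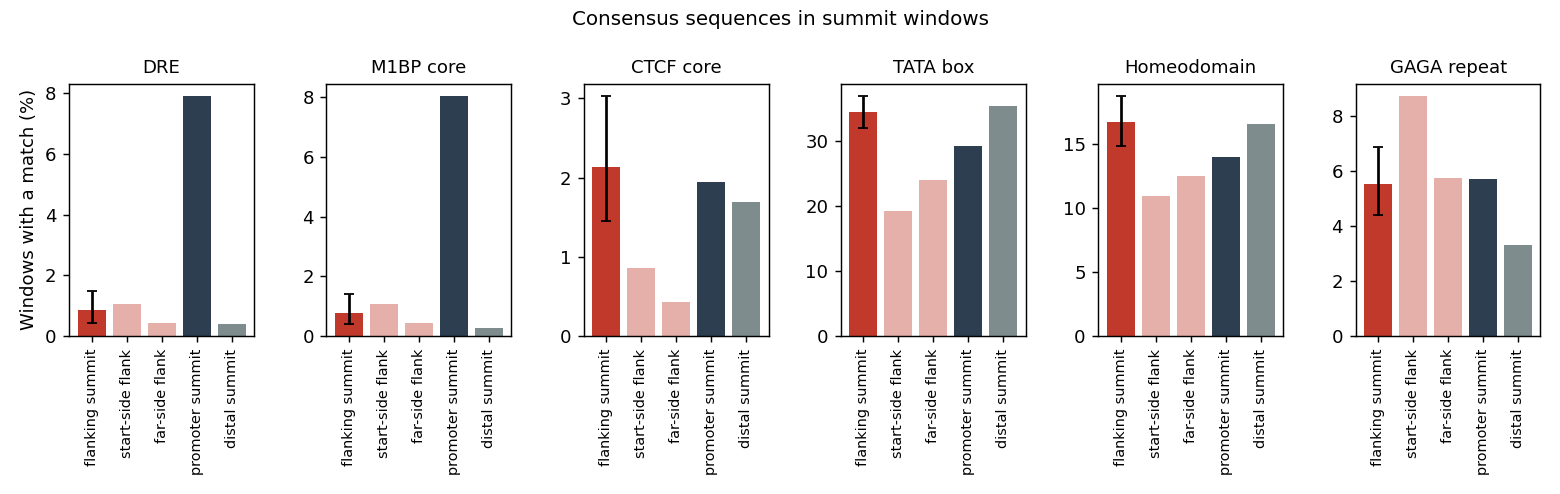
Percentage of windows of 100 bp to each side with a match (y axis, own scale in each panel) at member summits, at their flanks 500 bp toward and away from the start, and at promoter and distal summits, for 6 of the 26 sequences. Error bars are exact 95% intervals of the member share; DRE and M1BP core reach 7.92% and 8.05% at promoter summits and less than 1% at members.

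Words read off the summit windows themselves were more frequent there than in the flanks by the way they were chosen, and their shares are a description. CACTG occurred in 40.0% of the members' windows, against 34.4% toward the start and 27.8% away from it. It occurred at 45.0% of promoter summits, 46.1% of distal summits and 35.5% of background entries at the members' positions. Longer words that contain CACTG or its complement were CACTGTGC, in 62 members (4.41%, flanks 0.712% and 1.35%), CACTGAGA in 33 (2.35%, flanks 0.142% and 0.498%) and CAGTGCAC in 39 (2.78%, flanks 0.569% and 0.356%). At promoter summits these 3 words stood at 2.56%, 1.02% and 0.798%, and at distal summits at 3.76%, 4.93% and 3.11%. GGGTAT, with no CACTG in it, was found at 153 members (10.9%), against 4.41% and 6.19% of the flanks, 7.38% of promoter and 9.83% of distal windows.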

How the data were processed

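The authors deposited peak lists of tagged Hmr in narrowPeak form, not reads, so depth is unknown. Text files that came with the samples say that relaxed lists of 30000 entries were called for each of 3 replicates and for the pool against 1 shared control, and the optimal list was kept by the irreproducible discovery rate. The caller, its version, the aligner and the cut-off were not given in the sources used here. The authors' signal value was used to rank and compare peaks within a list. Column 9 of the deposited lists, defined in narrowPeak as −log10 of a q-value, was not used in any result. Summits came from the deposited summit offset. Coordinates are dm6, counted from 1; the dm3 lists were not used.

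Gene models were Ensembl release 115 (18164 genes without transposable elements, 13945 protein-coding), and sequence was RefSeq Release 6, with chromosome lengths that equal those of dm6. Members were taken by distance to the nearest transcript start. Ties went to protein-coding genes. Of the listed symbols, 6 were not found. Matches used 200 bp and the 8131 strongest entries of a replicate. Shares have exact 95% intervals (Clopper-Pearson) that take in counting error alone, and summits near each other share reads. Replicates were compared by an exact two-sided sign-flip test. Motifs were sought on both strands in windows of 100 bp to each side at summits and 500 bp to each side. The scripts were tested on simulated summits and planted motifs. Python 3.11.15, numpy 2.4.6, pandas 2.3.3 and scipy 1.17.1 were used.

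Members, gene lists and sequences were chosen with earlier results of these data known. Named were the genes nearest to the 20 strongest members, the 5 strongest on each side, up to 3 per gene list, genes with 3 or more members, and the 2 summits nearest to each bound on either side. One gene that this rule names is not reported here. Genes beyond this rule were listed after their values were seen, as were the words read off the summit windows and the 4 windows with a CTCF core. Alternatives were other starts, peak midpoints, bounds, match distances, window widths, stronger peaks and left-out replicates.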

Additional observations from a re-analysis of the deposited data

How the results depend on the processing

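Of 73 recomputed values for the main results, 55 kept their direction or stayed within the spread set for them. That spread was the exact interval for a share, 1.5 times for a count and 10% for a ratio of median signals. For mean G+C it was the SD over members, 7.68 percentage points, a band too wide for means of the same members to leave easily. With the inner bound at 500 bp, 716 members were left and 50.1% were upstream of their start. With peaks of above-median signal, 70.6% were upstream, 11.6% had a promoter summit at their start and 94.0% were matched in all 3 replicates. Leaving out replicates, by keeping only summits matched in both others, gave 992 to 1064 members, 68.0% to 69.6% upstream and 15.4% to 17.3% with a promoter summit at their start. Counting any pooled relaxed entry at the start raised the last share to 38.4%. The share matched in all 3 replicates was 57.2% within 100 bp, 70.96% within 500 bp and 92.9% against the full replicate lists.

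The difference in match share from promoter summits changed sign, to 0.533 percentage points within 500 bp, 1.98 with full lists, and -4.25 to 3.89 with a replicate left out, and it never exceeded the spread between replicates. The difference from distal summits turned to -0.851 with full lists, where nearly all summits match. The mean differences in rank from distal and from promoter summits kept their signs under all their alternatives. For promoter summits the exact sign-flip p was 0.5 (n = 3) with matches within 500 bp and with protein-coding starts only. The 3 replicates did not all share a sign there. The ratio of median signal to promoter summits crossed 1 in 2 of its 6 alternatives, at 1.01 and 1.05. Sequences above both flanks numbered 3 with windows of 50 bp to each side and 2 under the other alternatives. Mean G+C under alternatives added after seeing the data ran from 35.2% to 35.8%. The causes were not tested. No paired analysis was possible because the labels give 1 group, so no groups share replicate numbers. Classes of summits were compared within each replicate.

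Depth is unknown, the transgenic line had no untagged counterpart here, and 3 replicates cannot give an exact p below 0.25.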

Other observations

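The strength of a member went with its side, its composition and its presence in the replicates. With the members split by signal into 4 equal parts, from weakest to strongest, the share upstream was 62.2%, 64.4%, 67.8% and 73.5%, and the mean G+C of the summit window was 37.2%, 36.3%, 36.3% and 34.3%. The share matched in all 3 replicates was 9.38%, 59.0%, 93.2% and 98.3%, which follows in part from a match rule that itself uses rank. CACTG did not rise with signal, at 41.5%, 40.2%, 42.7% and 35.6%.

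Members made up 16.7% to 17.8% of the optimal summits on each of the 5 large chromosome arms. On chromosome 4, which is small and mostly heterochromatic, they were 6 of 18 summits. The members there included a pair at Asator, with signals of 660 and 468, and 1 at pan, 552 bp upstream of the start, with replicate signals of 266, 271 and 348.

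The 6-letter words most in excess at the members' summits over their flanks were ATGTTA (18.3% of windows, flanks 7.19% and 9.04%) and ACTGTA (211 members, flanks 6.98% and 7.26%). They were chosen by that excess and were not tested.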
